A study of Mus musculus with 34 samples.

Results

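The genes of fatty acid synthesis, elongation and desaturation were followed in mouse cumulus cells (CCs), the somatic cells that surround the oocyte. The members were Acly, Acaca, Fasn, Scd1, Scd2, Elovl6, Elovl1, Elovl5, Fads1 and Fads2, found by symbol as 10 of the 25965 entries of the count table, and every member was read in all 34 libraries except Fads2, which had a read in 33. All libraries came from C57BL/6J female mice that entered either model at 8 weeks of age per the labels and had been superovulated, and each was made from about 50 cells of a single cumulus-oocyte complex. The hyperleptinemic model held mice injected for 16 days with saline (16 C, n = 3) or with 100 μg of leptin per day (16 L, n = 5), without a change of diet. The diet-induced obesity model held mice kept on chow diet (CD, 11% of energy from fat per the labels) or high-fat diet (HFD, 58%). Its groups were 4-week CD (n = 5), 4-week HFD (n = 5), 16-week CD (n = 6), 16-week HFD (n = 7) and 16-week HFD low gainer (n = 3), the last being mice that gained little weight on the same diet.

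Fatty acids are built from acetyl-CoA in the cytosol. ATP citrate lyase (Acly) cuts citrate into acetyl-CoA, acetyl-CoA carboxylase (Acaca) turns it into malonyl-CoA, and fatty acid synthase (Fasn) assembles palmitate. Elongases then lengthen the chain: Elovl6 extends saturated and monounsaturated chains, Elovl1 makes very long saturated chains, and Elovl5 works on polyunsaturated chains. The stearoyl-CoA desaturases Scd1 and Scd2 place the first double bond, and Fads1 and Fads2 are the front-end desaturases of polyunsaturated fatty acid synthesis. Many of these genes are known targets of the transcription factor SREBP-1c, encoded by Srebf1.

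Total counts ran from 1104611 to 13207018 per library. The cumulus and granulosa markers were read in every group (12 of 12 genes, and 11 of 12 in the low gainers, where Amh was at 0). The library 16 L replicate 18 stood apart: its summed normalised count of 10 oviduct epithelium markers was 33400 CPM (counts scaled to library size), against 12.5 to 1765 in the other 16 L libraries and 26.4 to 112 in 16 C. Its 5 cumulus expansion markers summed to 34.0 CPM, against 407 to 920 in the other 16 L libraries and 1611 to 2493 in 16 C. Red blood cell, adipocyte and stroma markers were also highest there. The libraries 16-week CD replicates 1 and 2 stood apart from the other 4 of their group in several members, as given below, and the share of their reads on the 50 most abundant genes was 14.9% and 15.5%, against 24.3% to 30.4% in the other 4. In 4-week HFD replicate 5 the 10 oocyte markers summed to 345.5 CPM, all of them read, against 0 to 18.2 CPM in the other libraries. These were bulk libraries, so fewer cells of a type and less RNA per cell cannot be told apart.

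Expression levels were compared between genes as CPM, normalised by the trimmed mean of M-values (TMM), per kilobase of exon. Over the 34 libraries the desaturase Scd2 was the most abundant member at 110 ± 56.7 CPM per kb (SD, n = 34), followed by Acly at 84.3 ± 42.2. Elovl5 (50.5 ± 18.2), Scd1 (40.0 ± 20.0), Elovl1 (32.8 ± 12.2) and Elovl6 (25.3 ± 8.51 CPM per kb) came next, then Fads1 at 14.2 ± 6.86. The enzymes that build the chain were low by this measure. Fasn stood at 3.24 ± 2.70 and Acaca at 0.926 ± 0.551 CPM per kb, with Fads2 between them at 1.55 ± 1.30. The length used was the union of annotated exons, longest for Acaca (17074 bases) and Fasn (10947 bases). By reads over all libraries Acaca (2634) was above Fads2 (909). Neighbours in the order by CPM per kb lay closer than the larger of their SDs, with the exceptions of Elovl6 over Fads1 and Fads1 over Fasn. The order at the top varied between groups. The mean of Scd2 was above that of Acly in 16 L (105.8 against 46.5 CPM per kb), 4-week CD (186.7 against 84.0), 4-week HFD (145.5 against 82.1) and 16-week CD (114.5 against 93.2, and 76.5 against 74.6 without replicates 1 and 2). Acly was the higher of the pair in 16 C (64.6 against 53.3), 16-week HFD (76.8 against 64.8) and the low gainers (170.2 against 82.6), where Elovl5 at 87.8 CPM per kb was also above Scd2.

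**Figure D1:**
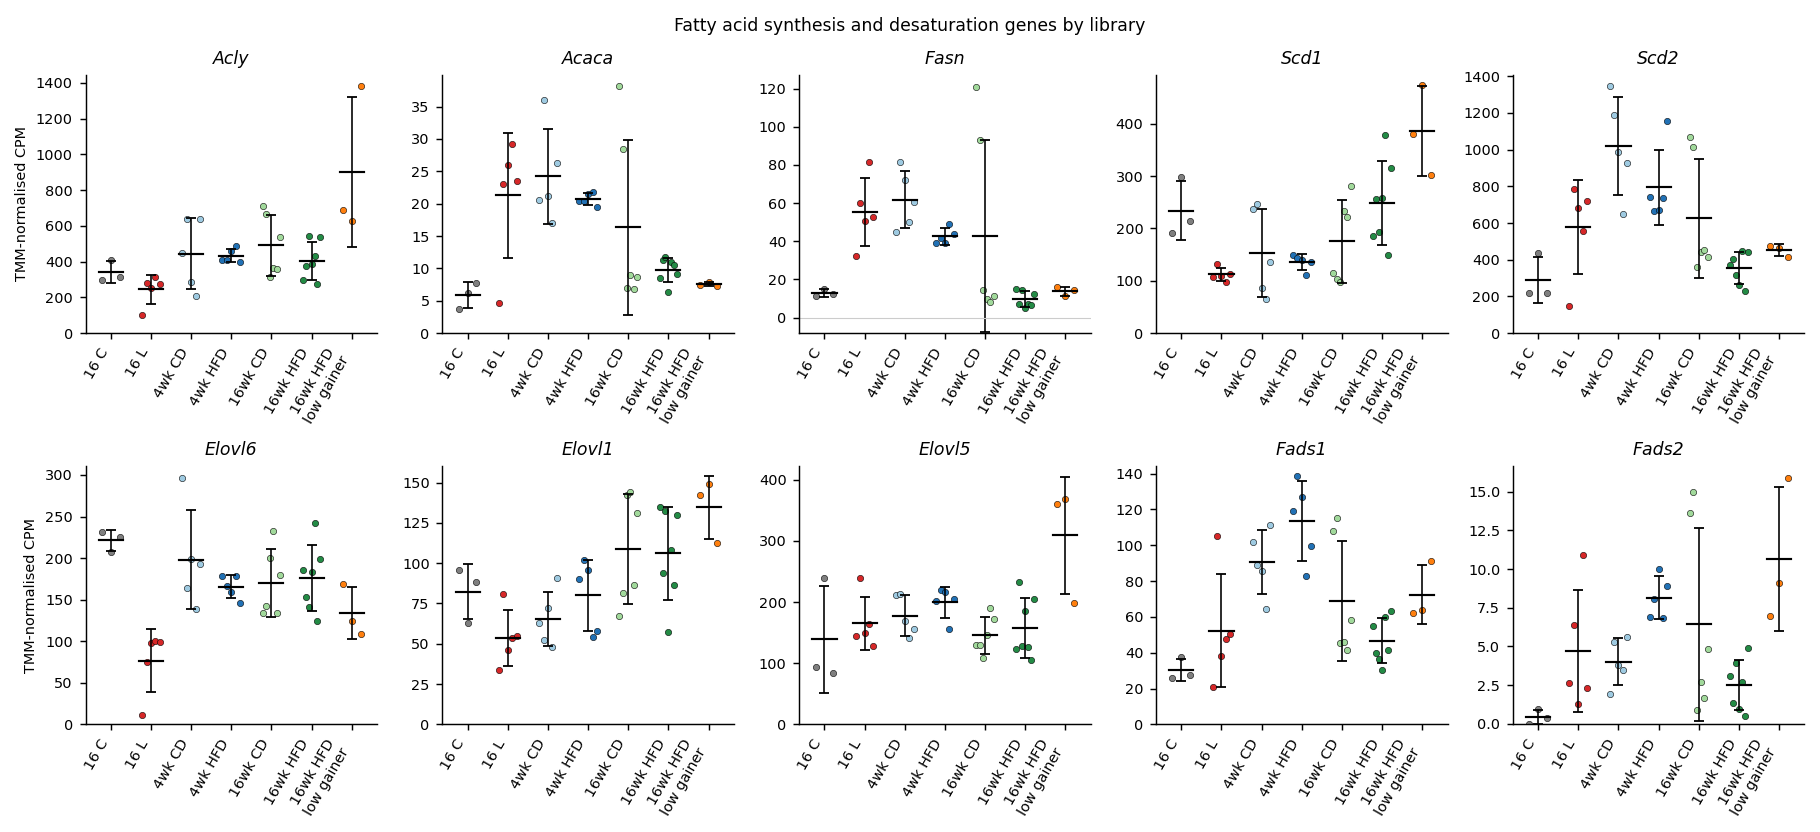
TMM-normalised CPM (vertical axis, linear) of each member in the 34 libraries, grouped along the horizontal axis; points are libraries, the horizontal line is the group mean and the bar is ± SD. Fasn lies between 38.9 and 81.4 CPM in all 4-week libraries and between 4.83 and 16.0 CPM in the 16-week libraries other than 16-week CD replicates 1 and 2, and the group mean of Acly is highest in the low gainers.

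The members lie on 5 chromosomes in GRCm38. Fasn (chr11:120805940-120824178), Acaca (chr11:84129672-84401651) and Acly (chr11:100476353-100528000) are on chromosome 11, and Scd1 (chr19:44394451-44407709), Scd2 (chr19:44293676-44306864), Fads1 (chr19:10182888-10196870) and Fads2 (chr19:10064164-10101503) are on chromosome 19. Elovl5 is on chromosome 9, Elovl6 on chromosome 3 and Elovl1 on chromosome 4. Scd1 and Scd2 are close paralogues whose reads the counting could have split. In the GENCODE M21 annotation Elovl1 overlaps Cdc20 on the other strand and Acaca overlaps Gm11437 on its own strand. Since use of strand in the counting is not stated, reads of Elovl1 and Cdc20 cannot be told apart there.

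The 250 bases before the RefSeq start (GRCm38.p6, gene's strand) are shown for Fasn, Acly and Elovl5, members that changed in a comparison below and whose window lies upstream of the annotated transcripts. Capitals mark the CCAAT motif, which the factor NF-Y binds, and the E-box CACGTG, which the USF factors bind, each on either strand. The sterol regulatory element written TCACNCCAC, was searched on both strands and is in none of the windows shown.

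Fasn (chr11:120824548-120824797, minus strand): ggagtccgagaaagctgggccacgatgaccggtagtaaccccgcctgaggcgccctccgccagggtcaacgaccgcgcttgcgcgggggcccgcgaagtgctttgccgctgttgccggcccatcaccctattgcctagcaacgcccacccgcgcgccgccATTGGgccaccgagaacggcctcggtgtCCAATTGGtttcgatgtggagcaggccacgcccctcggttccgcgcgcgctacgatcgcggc

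Acly (chr11:100528001-100528250, minus strand): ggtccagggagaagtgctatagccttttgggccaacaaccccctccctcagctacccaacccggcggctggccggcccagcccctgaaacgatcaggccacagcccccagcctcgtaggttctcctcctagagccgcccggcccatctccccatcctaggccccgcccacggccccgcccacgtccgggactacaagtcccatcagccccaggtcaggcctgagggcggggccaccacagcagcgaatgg

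Elovl5 (chr9:77917115-77917364, plus strand): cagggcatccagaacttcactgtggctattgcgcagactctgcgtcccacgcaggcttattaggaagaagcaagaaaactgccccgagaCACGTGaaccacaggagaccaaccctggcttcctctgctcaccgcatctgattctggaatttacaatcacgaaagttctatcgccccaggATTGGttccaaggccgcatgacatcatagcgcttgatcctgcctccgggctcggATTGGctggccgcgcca

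In the Fasn window CCAAT occurred 3 times, of which a forward copy and a reverse copy overlapped, at 62 and 59 bases before the start, and the other lay at 90 bases. The Elovl5 window held CCAAT 2 times, at 71 and 17 bases, and the E-box 1 time, at 161 bases, and the Acly window held none of the 3 motifs. Of all 32851 promoter windows of the same length, 33.9% held CCAAT, 6.02% CACGTG and 1.05% TCACNCCAC. A match is a description of letters and does not show binding. The RefSeq start of Fasn lies 369 bases upstream of the start in the count table.

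Leptin injection was compared with saline to ask how high leptin without obesity altered these genes. The fatty acid synthase gene Fasn rose in 16 L. Its normalised counts were 11.3, 15.1 and 12.3 CPM in the 3 libraries of 16 C and 32.2, 60.0, 50.6, 81.7 and 52.7 CPM in the 5 of 16 L. These rested on 15, 128 and 32 reads in 16 C and on 117 to 592 reads in 16 L. Every 16 L library was above every 16 C library. The log2 fold change was 2.08 ± 0.39 (SE, 95% interval 1.22 to 2.95, adjusted p = 0.0201, edgeR's quasi-likelihood test). Fasn was the 1 member called of the 9 tested, beside 8.56% of all genes tested.

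The other members of this comparison did not pass the threshold. Of the 9 tested, 4 had an unadjusted p under 0.05, beside 32.4% of all genes tested, so such values were common here. How often all genes lacked overlap between groups is not given, here or below. Its absence in a gene therefore only describes the values. Acaca, the step before Fasn, was at 3.77, 6.27 and 7.70 CPM in 16 C, and at 4.60 CPM in 16 L replicate 18 against 23.1, 26.0, 29.3 and 23.5 CPM in the other 16 L libraries. Only replicate 18 overlapped the controls, and the log2 fold change was 1.80 ± 0.60 (adjusted p = 0.0821). Scd1 had 191, 298 and 213 CPM in 16 C and 98.0 to 132 CPM in 16 L, with no overlap and a log2 fold change of -1.06 ± 0.30 (adjusted p = 0.0538). Elovl6, the elongase of palmitate, had 232, 208 and 225 CPM in 16 C, against 10.9 CPM in replicate 18 and 75.5, 97.7, 100.1 and 99.3 CPM in the other 16 L libraries. Its groups did not overlap either, and its log2 fold change was -1.54 ± 0.56 (adjusted p = 0.101). Scd2 was at 216, 437 and 221 CPM in 16 C and at 554 to 786 CPM in 4 libraries of 16 L, while replicate 18 was at 148 CPM (log2 fold change 0.97 ± 0.56, adjusted p = 0.253). For Acly, Elovl1, Elovl5 and Fads1 the log2 fold changes were -0.48, -0.61, 0.24 and 0.77, with 95% intervals that all held 0.

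Fads2, the first desaturase of polyunsaturated fatty acid synthesis, had too few counts here to be tested with the other genes. It had 0, 8 and 1 reads in 16 C, and 16, 63, 3, 16 and 7 reads in 16 L. That was 0.290 ± 0.304 RPM (reads scaled to the library total; SD, n = 3) against 5.86 ± 5.35 RPM (SD, n = 5), without overlap. The means of log2(RPM + 1) differed by 2.12. An exact permutation test, two-sided, gave p = 0.0357, which is the lowest value that groups of this size can give. A difference on this scale understates the change of low genes. RPM also leaves out the TMM factor, which was 0.907 to 1.33 in 16 L and 0.640 to 0.741 in 16 C. With that factor the Fads2 means lay closer together, at 0.444 ± 0.476 CPM in 16 C and 4.71 ± 3.96 CPM in 16 L (SD).

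The leptin result depended on which libraries entered. Without 16 L replicate 18, 5 members passed (Acaca, Elovl6, Fasn, Scd1 and Scd2, edgeR's quasi-likelihood test), beside 41.8% of all genes tested in that fit. Without 16 L replicate 19 there were 2, Fasn and Scd1, beside 14.4% of all genes. Leaving out any 1 of the 3 libraries of 16 C, or 16 L replicate 20, 21 or 23, left 0 members. In those fits 0.235% to 1.28% of all genes tested passed, against 8.56% with all libraries. The Fasn log2 fold change lay between 1.91 and 2.24 over all 8 fits with 1 library left out. Other measures of the libraries moved with the group. The share of reads on the 50 most abundant genes was 13.4% to 19.8% in 16 L and 30.7% to 34.6% in 16 C, the TMM factor was 0.907 to 1.33 against 0.640 to 0.741, and all genes tested had a median change of 0.27 on the log2 scale. The 12 cumulus and granulosa markers summed to 3758 to 11109 CPM in 16 L and 15684 to 41239 CPM in 16 C, and the 5 cumulus expansion markers to 34.0 to 919.5 CPM against 1611 to 2493 CPM, neither list with overlap between the groups. Gene by gene the lists did not fall as a whole. Of 11 cumulus and granulosa markers tested 0 were called, with 5 higher and 6 lower and a median log2 fold change of -0.07. Of 5 expansion markers tested 0 were called, with 1 higher and 4 lower and a median of -0.22. Without the TMM factor (total counts only) Acly and Elovl1 changed sign, to 0.41 and 0.22, and the parts of these measures in the member values were not tested.

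**Figure D2:**
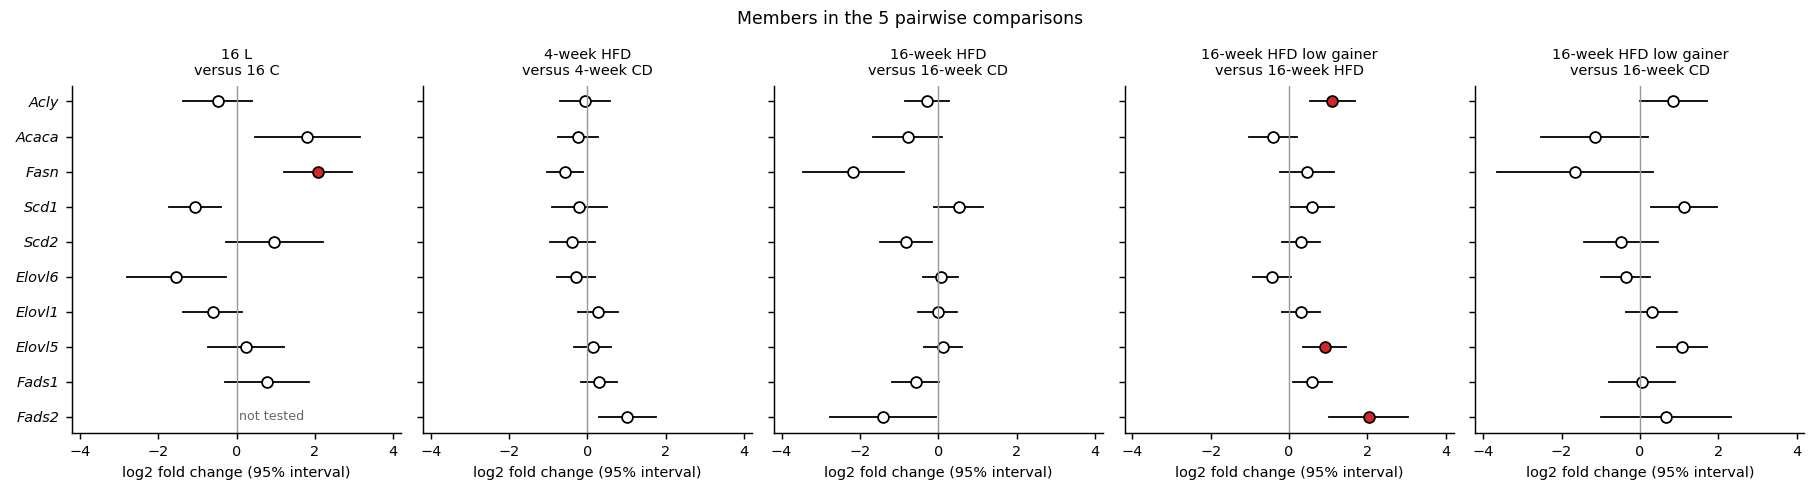
Log2 fold change of each member (points) with its 95% interval (lines) in the 5 pairwise comparisons; filled points passed an adjusted p of 0.05. Fasn is filled in 16 L versus 16 C, and Acly, Elovl5 and Fads2 are filled in the low gainers versus 16-week HFD.

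At 4 weeks HFD was compared with CD to describe the early response to diet. None of the 10 members passed the threshold in edgeR's quasi-likelihood test, beside 4.26% of all genes tested. An unadjusted p under 0.05 was found in 2 members, beside 24.3% of all genes tested, and DESeq2 called 1, Fads2. Fads2 was at 1.93, 5.31, 3.78, 3.49 and 5.62 CPM in CD and at 6.90, 8.09, 10.0, 6.81 and 8.93 CPM in HFD. All 5 HFD libraries were above all 5 CD libraries, and the log2 fold change was 1.02 ± 0.34 (95% interval 0.30 to 1.75, adjusted p = 0.0928). Without 4-week CD replicate 11 the adjusted p was 0.0419, beside 14.4% of all genes tested in that fit. Without 4-week HFD replicate 5, the library with the oocyte markers, the Fads2 log2 fold change was 0.95 ± 0.38 (adjusted p = 0.182). In that fit 0.184% of all genes tested passed. Fasn was at 45.04 to 81.4 CPM in CD and 38.9 to 49.3 CPM in HFD, with a log2 fold change of -0.57 ± 0.22 (adjusted p = 0.131).

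The other 8 members differed little at 4 weeks. Their log2 fold changes lay between -0.38 (Scd2) and 0.30 (Fads1), and each 95% interval held 0. The intervals were narrow enough to bound the difference for some: for Elovl5 it ran from -0.33 to 0.60, and for Acaca from -0.74 to 0.26. The spread between libraries was smaller in HFD than in CD, without a test, for Acly (434 ± 37.5 CPM against 444 ± 197, SD, n = 5 each) and Scd1 (136 ± 14.7 against 154 ± 84.2). It was larger in HFD for Elovl1 (SD of 22.2 CPM against 17.0) and Fads1 (22.2 against 17.9). In this pair the share of reads on the 50 most abundant genes was 13.7% to 18.5% in CD and 18.7% to 20.2% in HFD.

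After 16 weeks the same diets were compared for the long-term response, and again 0 of 10 members passed in edgeR's quasi-likelihood test, beside 0.0276% of all genes tested. Of the members 3 had an unadjusted p under 0.05, beside 25.3% of all genes tested, and DESeq2 called 1, Fasn. Fasn was at 121 and 92.9 CPM in 16-week CD replicates 1 and 2 and at 14.7, 9.93, 8.25 and 11.2 CPM in replicates 5, 8, 9 and 13. The 16-week HFD libraries ran from 4.83 to 15.2 CPM with a median of 7.28. The 4 lower CD libraries lay within the HFD range, and only CD replicates 1 and 2 were above it. The log2 fold change was -2.17 ± 0.62 (adjusted p = 0.0662), and without CD replicates 1 and 2 it was -0.11 (adjusted p = 0.912). Without CD replicate 13 or 9, Fasn passed, with adjusted p = 0.0466 and 0.0159 in edgeR's quasi-likelihood test. In those fits 4.29% and 20.5% of all genes tested passed.

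CD replicates 1 and 2 also stood apart in further members. Acaca was at 38.2 and 28.4 CPM in CD replicates 1 and 2, at 6.88 to 9.03 CPM in the other 4, and at 6.28 to 11.7 CPM in HFD. Scd2 was at 1070 and 1013 CPM in replicates 1 and 2, at 362 to 455 CPM in the other 4, and at 232 to 449 CPM in HFD. Fads1 had 108 and 115 CPM against 41.3 to 58.3, and Fads2 13.6 and 15.0 CPM against 0.884 to 4.86. In these members, as in Fasn and in Acly (712 and 667 CPM against 316 to 536), replicates 1 and 2 were the highest of their group. The log2 fold changes with all libraries were -0.78 for Acaca, -0.83 for Scd2, -0.58 for Fads1 and -1.40 for Fads2 (adjusted p from 0.118 to 0.243), and without replicates 1 and 2 they were 0.37, -0.18, 0.02 and 0.15. The part of the read concentration in replicates 1 and 2 in these values was not tested.

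In Scd1, Elovl1, Elovl5 and Elovl6 replicates 1 and 2 were not the highest, and in Elovl1 they were the lowest (67.1 and 81.8 CPM against 86.4 to 144). Scd1 was at 115 and 103 CPM in CD replicates 1 and 2, near the 97.5 CPM of replicate 5 and below the 222 to 280 CPM of the other 3. In HFD it ran from 150 to 379 CPM, a log2 fold change of 0.52 ± 0.30 (adjusted p = 0.271). Elovl1 and Elovl6 were nearly level between the diets, with 95% intervals of -0.52 to 0.48 and -0.38 to 0.50, and Elovl5 had an interval of -0.36 to 0.61.

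**Figure D3:**
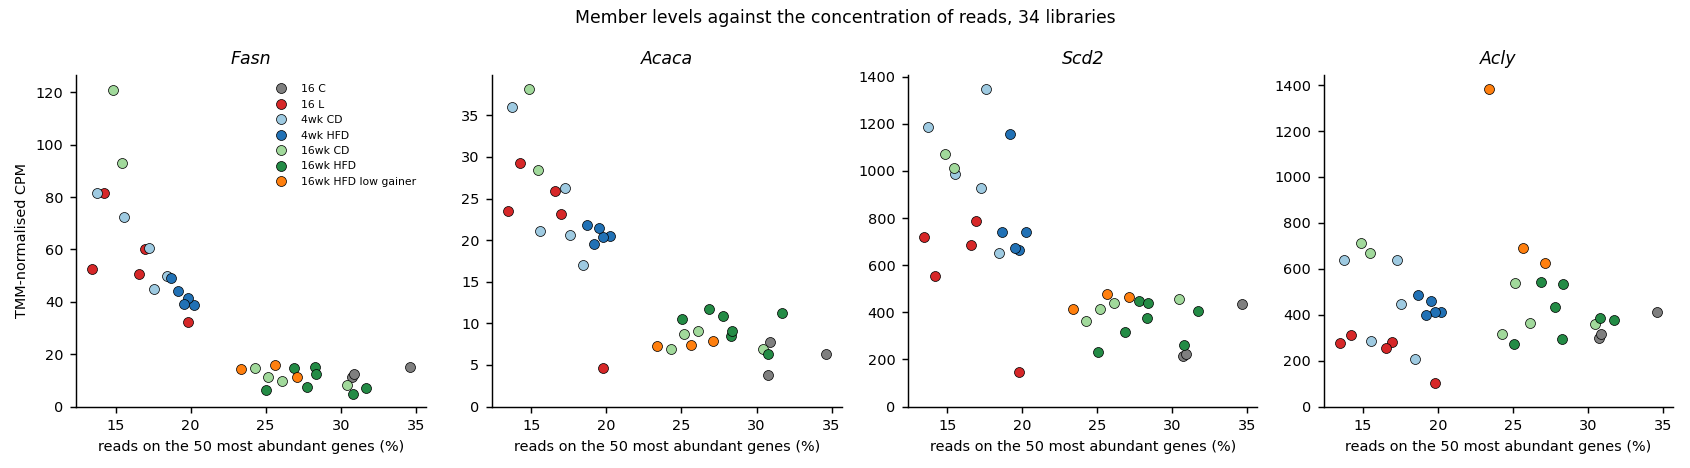
TMM-normalised CPM (vertical axis) of Fasn, Acaca, Scd2 and Acly against the percent of a library's reads on its 50 most abundant genes (horizontal axis), 1 point per library and 1 colour per group. Libraries at or under 20.2% hold the Fasn values of 32.2 CPM and above, and Acly shows no such pattern.

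Over the 34 libraries Spearman's rho between the normalised level and the share of reads on the 50 most abundant genes was -0.88 for Fasn, -0.83 for Acaca and -0.75 for Scd2. For Scd1 it was 0.66, and for Acly and Elovl5 it was -0.01 and 0.00. These are descriptions across libraries that share their experiment, group and depth, and carry no test. Within the 16-week HFD group and the low gainers, where the share was 23.4% to 31.7%, Fasn stayed between 4.83 and 16.0 CPM.

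The low gainers were compared with 16-week HFD mice, which ate the same diet for the same time. In edgeR's quasi-likelihood test 3 of 10 members rose and 0 fell, beside 20.7% of all genes tested in either direction, so the count was near the background. Acly, which supplies acetyl-CoA, was at 689, 625 and 1382 CPM in the low gainers and at 272 to 544 CPM with a median of 384 in HFD. The groups did not overlap, and the log2 fold change was 1.11 ± 0.28 (adjusted p = 0.0113). Fads2 was at 6.94, 9.08 and 15.9 CPM in the low gainers, all above the HFD range of 0.537 to 4.92 CPM. Its log2 fold change was 2.03 ± 0.48 (adjusted p = 0.00882), on 42, 30 and 61 reads against 2 to 19 reads, and it passed the filter on low counts with 3 of 7 HFD libraries over the limit as well as all 3 low gainers. Elovl5 was at 360, 369 and 199 CPM in the low gainers and at 106 to 233 CPM in HFD, so that 1 low gainer lay within the HFD range (log2 fold change 0.91 ± 0.27, adjusted p = 0.0238).

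Further members had smaller differences. Fads1 was at 62.3, 63.8 and 91.3 CPM in the low gainers and 30.5 to 63.4 CPM in HFD, with a log2 fold change of 0.59 ± 0.23 (adjusted p = 0.0775). Scd1 was at 381, 474 and 302 CPM against 150 to 379 CPM, with 0.58 ± 0.27 (adjusted p = 0.125). Acaca and Elovl6 had negative values, -0.41 and -0.44, and Fasn, Scd2 and Elovl1 lay at 0.45, 0.30 and 0.30, all with intervals that held 0. The median log2 fold change of the 10 members was 0.52, against -0.03 over all genes tested. Over the members tested, this median was 0.24 against 0.27 in 16 L versus 16 C and -0.13 against -0.01 at 4 weeks. At 16 weeks it was -0.43 against -0.05, and in the low gainers against 16-week CD 0.17 against -0.08. These medians carry no test.

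The 3 calls depended on single low gainers. Without low gainer replicate 23, Acly fell to 0.66 (adjusted p = 0.161) and Fads2 to 1.62 (adjusted p = 0.108), so that Elovl5 alone passed. The share of all genes that passed also fell, from 20.7% to 5.19%. Without low gainer replicate 21 or 22, Elovl5 had an adjusted p of 0.0988 or 0.107 in edgeR's quasi-likelihood test. In those fits 9.94% and 12.6% of all genes tested passed. With all 34 libraries in one fit Acly passed while Elovl5 and Fads2 had adjusted p of 0.0521 and 0.0626. Macrophage and neutrophil markers summed to 293 to 372 CPM in the low gainers and 136 to 673 CPM in HFD, and cumulus expansion markers to 1031 to 1211 against 1101 to 3650 CPM, with 2 of the 4 expansion genes tested called lower. Cumulus and granulosa markers summed to 14149 to 17762 against 7748 to 16719 CPM, and of the 10 tested 2 were called higher and 1 lower. Of the 9 macrophage and neutrophil markers tested, 1 was called higher, beside 20.7% of all genes tested in either direction. The mitochondrial share of reads was 0.337% to 0.614% in the low gainers and 0.786% to 1.53% in HFD, without overlap. The part of these measures in the member values was not tested.

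Against 16-week CD the low gainers differed in none of the 10 members by edgeR's quasi-likelihood test, beside 0.00861% of all genes tested. At an unadjusted p under 0.05 there were 2 members, beside 11.2% of all genes tested, and DESeq2 called 1, Elovl5. Elovl5 was at 108 to 190 CPM with a median of 138 in 16-week CD, below all 3 low gainers, and had a log2 fold change of 1.07 ± 0.29 (adjusted p = 0.257). Scd1 was at 97.5 to 280 CPM in CD, also below all 3 low gainers, with 1.13 ± 0.38 (adjusted p = 0.350). Fasn was -1.66 with both outlying CD libraries and 0.33 without them, and Scd2 was -0.49 with and 0.11 without. Acly was 0.85 and 1.19, and Fads2 0.67 and 2.21, each without passing (adjusted p = 0.152 and 0.142 without the 2 libraries). This comparison shares its low gainers with the one before and its CD libraries with the diet comparison at 16 weeks, so the 3 sets of values are not independent.

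The diet effect at 16 weeks was then set against that at 4 weeks in 1 fit of the 4 diet groups. No member passed in edgeR's quasi-likelihood test, beside 3.66% of all genes tested. An unadjusted p under 0.05 was found in 3, beside 23.4% of all genes tested, and DESeq2 called 1, Fads2. The difference of log2 fold changes was -2.27 ± 0.77 for Fads2 (adjusted p = 0.0783), -1.43 ± 0.70 for Fasn (adjusted p = 0.214) and -0.77 ± 0.37 for Fads1 (adjusted p = 0.203). Without 16-week CD replicates 1 and 2 these were -0.88, 0.42 and -0.31. Without 16-week CD replicate 5 or 9, Fads2 passed, with values of -2.59 and -2.46. In those fits 5.49% and 13.8% of all genes tested passed.

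Reads of paralogous desaturases were also expressed as a share of their pair within each library, a measure that does not depend on the scaling between libraries. Scd1 made up 46.9%, 40.5% and 49.1% of the Scd1 and Scd2 reads in 16 C. In 16 L it was 42.0% in replicate 18 and 13.7% to 15.0% in the other 4. At 4 weeks the share was 12.4% ± 3.88 in CD and 15.0% ± 3.10 in HFD (SD, n = 5 each), and at 16 weeks it was 40.9% ± 5.46 in HFD (n = 7) and 45.7% ± 4.33 in the low gainers (n = 3). In 16-week CD replicates 1 and 2 it was 9.70% and 9.22%, against 21.2% to 40.4% in the other 4. The shares thus fell in 2 ranges in these libraries, at or under 21.2% and at or over 32.7%. The depth behind a share was 540 reads or more per library on the pair, and a Wilson 95% interval for the library with the fewest reads ran from 42.7% to 51.1%, for counting error only.

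Of the 15 tests of a share, none passed after Benjamini-Hochberg adjustment over all of them, and the exact permutation test reached an unadjusted p under 0.05 in 6. The Scd1 share was 16.3 percentage points higher in 16-week HFD than in 16-week CD (p = 0.0140, adjusted p = 0.0893, two-sided exact permutation test), and 8.65 points higher without CD replicates 1 and 2 (adjusted p = 0.156). In 16 L it was 25.7 points lower than in 16 C (exact permutation p = 0.0714, adjusted p = 0.153). Fads1 held 81.4% to 100% of the Fads1 and Fads2 reads in all libraries, lowest on average in the low gainers at 87.6% ± 2.39 (SD, n = 3). There it was 7.56 points below 16-week HFD without overlap (exact permutation p = 0.0167, adjusted p = 0.0893). Acaca held 63.0% to 86.1% of the reads of Acaca and its mitochondrial paralogue Acacb as group means, over the libraries with at least 20 reads on the pair.

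**Figure D4:**
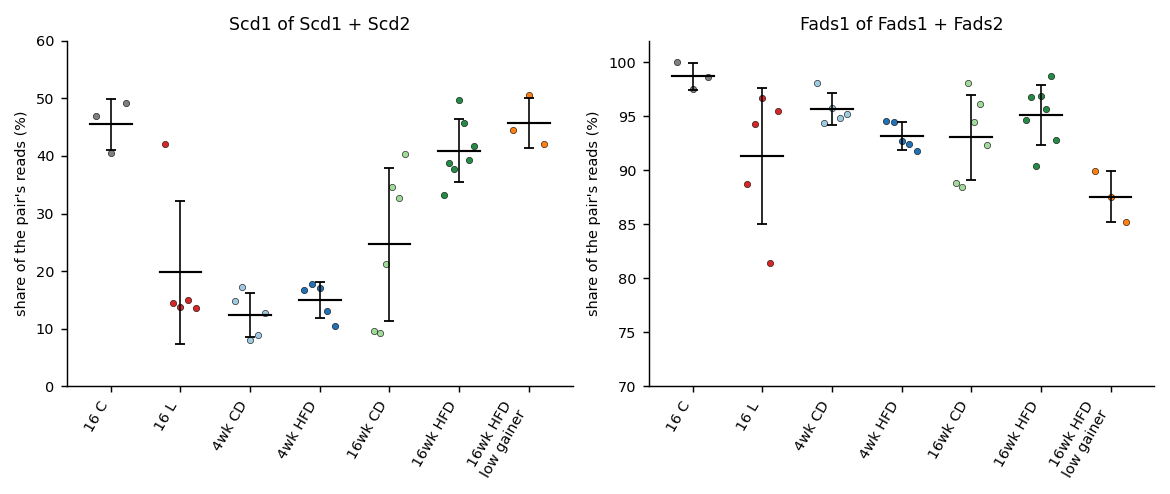
Share of a paralogue pair's reads (vertical axis, %) held by Scd1 (left, axis from 0) and by Fads1 (right, axis from 70 to show the spread) in each library; lines are group means and bars ± SD. The Scd1 share is under 18% in the 4-week libraries, in 4 of 5 libraries of 16 L and in 16-week CD replicates 1 and 2.

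Genes around the pathway were taken from a list of 38 partners (further elongases, desaturases, acyl-CoA synthetases and suppliers of acetyl-CoA or NADPH) and a list of 31 regulators. In 16 L, 4 of 32 partners tested passed in edgeR's quasi-likelihood test, beside 8.56% of all genes tested. Mid1ip1, which activates acetyl-CoA carboxylase, rose with a log2 fold change of 2.48 ± 0.52 (adjusted p = 0.0287), from 8.30 to 19.04 CPM in 16 C to 37.5 to 129 CPM in 16 L. Idh1, a source of cytosolic NADPH, fell by 4.23 on the log2 scale (adjusted p = 0.0231), from 24119 to 30278 CPM to 301 to 3867 CPM, and the acyl-CoA synthetase Acsl4 fell by 3.46 (adjusted p = 0.0119). Hacd1, a dehydratase of chain elongation, fell by 1.76 (adjusted p = 0.0415). Among 28 regulators, the transcription factor Sp1 was the 1 that passed (log2 fold change -1.96, adjusted p = 0.0138). Leaving out 1 library gave 0 to 14 partners and 0 to 12 regulators, the most without 16 L replicate 18, where 41.8% of all genes passed. The known regulator Srebf1, named here after its values were seen, was at 13.6 to 19.9 CPM in 16 C and 15.3 to 60.7 CPM in 16 L, with a log2 fold change of 1.29 ± 0.45 (adjusted p = 0.0940), and of 1.39 ± 0.31 without 16 L replicate 18 (adjusted p = 0.00591).

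In the diet model at 4 weeks, the desaturase-like Fads6 (log2 fold change -1.84 ± 0.29, adjusted p = 0.0130) and the regulator Usf2 (-1.56 ± 0.34, adjusted p = 0.0267) fell in HFD, as 1 of 30 partners and 1 of 28 regulators tested by edgeR's quasi-likelihood test, beside 4.26% of all genes tested. Without 4-week HFD replicate 5 they had adjusted p of 0.0420 and 0.0582, in a fit where 0.184% of all genes tested passed. Leaving out 1 library gave 0 to 6 partners and 0 to 5 regulators, and 8 to 1700 of all genes. Fads6 was at 125 to 319 CPM in CD and 56.2 to 91.5 CPM in HFD, without overlap. At 16 weeks 0 of 31 partners and 0 of 25 regulators passed, and DESeq2 called 3 of each. At an unadjusted p under 0.05 there were 9 and 11, beside 25.3% of all genes tested. Srebf1 was at 11.7 to 112 CPM with a median of 19.01 in 16-week CD and 10.3 to 17.1 CPM in 16-week HFD (log2 fold change -1.68 ± 0.50, adjusted p = 0.0724), and without CD replicates 1 and 2 its log2 fold change was -0.086 (adjusted p = 0.914). Against 16-week CD the low gainers also had 0 of 31 partners and 0 of 28 regulators past the threshold, and DESeq2 called 1 and 0. At an unadjusted p under 0.05 there were 7 and 2, beside 11.2% of all genes tested. In the difference between the diet effects, 1 of 31 partners, Fads6 (2.49), and 2 of 31 regulators, Usf2 (1.75) and Sp1 (2.00), passed, with adjusted p of 0.00407, 0.0275 and 0.0291, beside 3.66% of all genes tested. Without 16-week CD replicates 1 and 2 these were 2.48, 1.72 and 1.85, and Fads6 was the 1 that passed (adjusted p = 0.0142, against 0.0591 and 0.0746).

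In the low gainers against 16-week HFD, 10 of 31 partners passed, 7 higher and 3 lower, and 8 of 25 regulators, 6 higher and 2 lower, beside the 20.7% of all genes tested. With all 34 libraries in one fit 3 partners and 4 regulators passed, and leaving out 1 library gave 4 to 10 and 4 to 9. The reductase Tecr and the dehydratase Hacd3 of chain elongation rose by 1.32 and 0.99 on the log2 scale (adjusted p = 0.00217 and 0.0122), and Tecr was at 295 to 371 CPM against 68.6 to 197 CPM in HFD, without overlap. Cyb5r3, which passes electrons to the desaturases, rose with a log2 fold change of 1.12 (adjusted p = 0.00301), and Acss2, which makes acetyl-CoA from acetate, with 0.93 (adjusted p = 0.00827). Fads3, Acsl1 and Acsl5 also rose, with 1.32, 1.07 and 0.82, while Elovl7 and 2 further partners fell, Elovl7 with -1.12. Of the regulators, Srebf1 was at 22.7 to 26.3 CPM in the low gainers, above the 10.3 to 17.1 CPM of all 7 HFD libraries (log2 fold change 0.70 ± 0.24, adjusted p = 0.0430). Nr1h2, the liver X receptor beta, had a log2 fold change of 2.09 ± 0.34 (adjusted p = 0.00131), with 55.9 to 148 CPM against 6.94 to 33.2 CPM. Rxrb (1.31), Usf1 (1.14), Stk11 (1.12) and Nfyc (0.70) also rose, and Prkaa2, a catalytic subunit of AMP-activated kinase, and Sp1 fell, with -1.42 and -0.92.

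**Figure D5:**
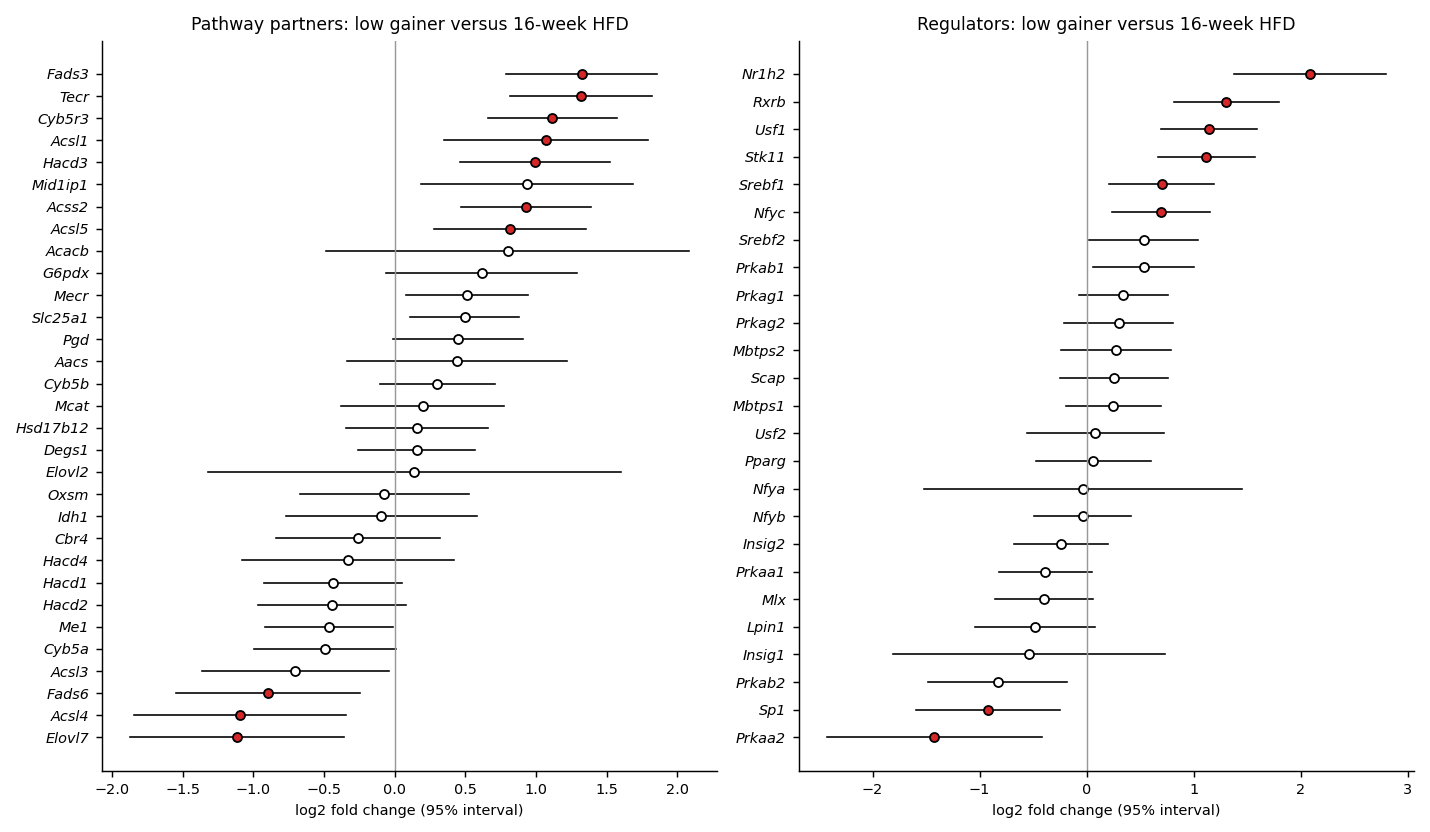
Log2 fold change (points) with 95% interval (lines) of the partners and regulators that passed the filter on low counts, low gainers versus 16-week HFD; filled points passed an adjusted p of 0.05. Filled points lie on both sides of 0, 7 higher and 3 lower among the partners and 6 higher and 2 lower among the regulators.

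The members did not move as 1 block within groups. With each group centred on its mean, Spearman's rho over the 34 libraries was 0.75 between Fasn and Fads2, 0.70 between Scd1 and Elovl5, 0.69 between Fads1 and Fads2, and 0.60 between Fasn and Acaca. Without 16-week CD replicates 1 and 2 these became 0.59, 0.72, 0.58 and 0.31. Scd1 and Scd2, for all their similarity, had a rho of 0.21, which was 0.55 without those 2 libraries. The gene most like each member by this measure, among 13019 genes, was Ubr4 for Fasn (0.86), Sdc3 for Acaca (0.84), Slc16a3 for Acly (0.88), Vapa for Scd1 (0.76), Chst11 for Scd2 (0.86) and Anxa2 for Elovl1 (0.92). It was Gna13 for Elovl5 (0.75), Rora for Elovl6 (0.72), P4ha3 for Fads1 (0.82) and Eogt for Fads2 (0.83). These likenesses describe libraries that share depth and composition, and carry no test.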

How the data were processed

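Libraries of CC RNA were primed with oligo-dT (Smart-seq2) and finished with Nextera XT, and carried no molecular identifiers. The authors deposited 1 table of raw counts, whole reads per gene and library, without normalization, and the submitters' processing notes name Trim Galore 0.4.2, HISAT2 2.0.5 and GRCm38. The counting program is not given in the sources used here. The labels gave each library's group and replicate number.

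The tests used edgeR 4.0.16 under R 4.3.3 (TMM, filterByExpr, robust quasi-likelihood F-test, two-sided, libraries of the compared groups only), called at a Benjamini-Hochberg adjusted p of 0.05 over all genes tested, and DESeq2 1.42.0 was an alternative. The fits were also run on simulated counts with large known changes, as a check of the code. That simulation held no outlying libraries, so it does not bear on how the calls moved when a library was left out. Printed CPM were TMM-normalised over the 34 libraries, lengths came from GENCODE M21, and correlations used log2(CPM + 0.5). Read shares used libraries with at least 20 reads on a pair and two-sided exact permutation tests in scipy 1.17.1. Promoters of 7 members were matched in the RefSeq table. Total counts were 1104611 to 13207018. A count of 0 allows up to 3 reads at 95% confidence, and intervals on reads cover counting error only. No 2 libraries were identical among 72 pairs within groups. P-values measure the spread between these libraries.

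The members, the lists and the naming rule (all members, called partners and regulators up to 8 per list and comparison, and the gene most like each member) were chosen with earlier results of these data known. 6 list genes were found by an older symbol. Leaving out 16-week CD replicates 1 and 2 was chosen after seeing the data.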

Additional observations from a re-analysis of the deposited data

Results flagged for a closer look

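Of 50 tests of a member in a group of 4 to 10 libraries, 5 found a library far from the others, where chance gives about 1 in 20. In 16 L, replicate 18 was lowest for Acaca (4.60 CPM, others 23.1 to 29.3), Acly (103 CPM, others 254 to 313) and Elovl6 (10.9 CPM, others 75.5 to 100.1). This is the library with the high oviduct epithelium markers, and their part in its values was not tested. In 4-week HFD, Scd2 was highest in replicate 14 (1156 CPM, others 665 to 742) and Elovl5 lowest in replicate 13 (157 CPM, others 202 to 219).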

How the results depend on the processing

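Depth limited Fads2 and Acaca: with about 50 cells per library and as few as 1104611 reads, they rested on 0 to 266 reads per library, and in 16 C on 3 libraries. The counts of members past the threshold moved with the method. In 16 L versus 16 C, 1 member passed, against 4 with DESeq2, 2 with RLE normalization, 4 with total counts only and 5 with all 34 libraries in one fit, and leaving out 1 library gave 0 to 5. At 4 weeks DESeq2 gave 1 against 0, and leaving out 1 library 0 to 1. At 16 weeks, 0 became 1 with DESeq2, 2 with total counts only and 1 with all 34 libraries in one fit, and 0 to 1 with 1 library left out. In the low gainers against 16-week HFD, 3 became 5 with total counts only and 1 with all 34 libraries in one fit, and 1 to 3 with 1 library left out. Against 16-week CD DESeq2 gave 1 against 0, and leaving out 1 library gave 0. For the difference between the diet effects DESeq2 gave 1 against 0, and 1 library left out 0 to 1. The count over all genes in 16 L was 1004, against 504 without the filter on low counts, 2629 with DESeq2, 4035 with total counts only and 4384 with all 34 libraries in one fit, and 30 to 4635 with 1 library left out. At 4 weeks it was 499, against 1291 with DESeq2 and 69 with all 34 libraries. At 16 weeks it was 3, against 13 without the filter, 1056 with DESeq2, 1646 with total counts only and 1258 with all 34 libraries. In the low gainers it was 2330, or 487 with all 34 libraries, and against 16-week CD 1, or 250 with DESeq2. For the difference between the diet effects it was 448, or 1165 with DESeq2, 873 with total counts only, 157 with all 34 libraries and 89 without 16-week CD replicates 1 and 2. The cause was not tested. The other settings of the count of members, filters included, kept it within 1.5 times, and the filter of 10 counts in every library kept 3 calls in the low gainers with Fads1 in place of Fads2, which it left untested.

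Directions changed for single members. With total counts only, Acly and Elovl1 were 0.41 and 0.22 in 16 L versus 16 C, Elovl5 and Elovl6 -0.23 and -0.29 at 16 weeks, and Fads1 -0.26 in the low gainers against 16-week CD. With at least 10 counts in every library, Elovl6 was -0.0063 at 16 weeks and Fads1 -0.0098 in the low gainers against 16-week CD. Without 16-week CD replicates 1 and 2, at 16 weeks Acaca was 0.37, Acly 0.10, Elovl6 -0.021, Fads1 0.025 and Fads2 0.15, in the low gainers against 16-week CD Fasn was 0.33 and Scd2 0.11, and the Fasn difference between the diet effects was 0.42. There the Fads1 share at 16 weeks became -0.121 points, and the Acaca share of the low gainers -1.11 points. With 1 library left out, values spanned 0 for Elovl5 in 16 L versus 16 C (-0.033 to 0.92), for Acly (-0.23 to 0.13) and Scd1 (-0.40 to 0.050) at 4 weeks, for Elovl1 (-0.10 to 0.082), Elovl5 (-0.012 to 0.22) and Elovl6 (-0.046 to 0.16) at 16 weeks, and for Fads1 (-0.050 to 0.23) in the low gainers against 16-week CD. The Acaca share spanned -0.0779 to 7.23 points at 4 weeks and -0.806 to 4.44 points in the low gainers against 16-week CD. The Fads2 difference in log2(RPM + 1) in 16 L was 1.74 to 2.37 with 1 library left out, where the exact permutation p was 0.0571 or 0.0952, the smallest those group sizes allow.

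Counts of partners and regulators moved too. In 16 L, 4 and 1 became 9 and 7 with DESeq2, 14 and 11 with total counts only and 12 and 10 with all 34 libraries in one fit, and the regulators 2 with RLE normalization or at least 10 counts in every library. At 4 weeks 1 and 1 became 5 and 2 with DESeq2, 1 and 2 with total counts only and 1 and 0 with all 34 libraries. At 16 weeks 0 and 0 became 3 and 3, 5 and 8, and 4 and 5 in those 3 settings, and 0 to 5 and 0 to 9 with 1 library left out. Without the filter 4 regulators passed in the low gainers against 16-week HFD, against 8. For the difference between the diet effects, 1 and 2 became 5 and 5 with DESeq2, and 1 to 5 and 0 to 6 with 1 library left out. RLE normalization or total counts only gave 4 partners there, no filter 2, at least 10 counts in every library 2 partners and 1 regulator, and all 34 libraries 1 regulator.

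Among the groups compared with each other, only those of the 4-week and 16-week diets share replicate numbers, and nothing says that a number marks the same mouse. With the replicate block, on the libraries with a shared number, 0 members passed for the difference between the diet effects, as did 0 partners and 0 regulators and 13 of all genes, with Fads2 at -3.58, Fasn at -2.55 and Fads1 at -0.92. Deviations of same-numbered CD libraries correlated at -0.26, -0.03 and -0.23, and 1 of the 3 correlated best with its own number. The shared HFD number gave 0.11, its closest match.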
